A study of Ovis aries with 3 samples.

Results

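miR-21 was examined in left ventricular (LV) tissue of sheep at baseline, in heart failure and after recovery. Entries were taken from both merged count tables, known oar-miRNAs (sheep) and hsa-, mmu- and rno-miRNAs (human, mouse and rat), wherever the name without its species prefix was miR-21, 21a, 21-5p or 21-3p. This gave 3 of 636 entries, namely oar-miR-21, hsa-/mmu-/rno-miR-21-5p and mmu-/rno-miR-21a-3p. All samples came from Coopworth ewes, and each condition was 1 library made from pooled RNA. Cont was not paced (4 sheep), HF had rapid LV pacing (6 sheep), and HF-R had the same pacing followed by recovery without pacing (4 sheep). The labels give the pacing as about 220 bpm for 13 days in one field and as 225 bpm for 14 days in another, and the recovery as 26 days or as 14 further days.

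miR-21 is a microRNA, a short RNA that is cut from a hairpin and guides the silencing complex to mRNAs that pair with its seed, the bases at its 5′ end. The 5p arm is the guide strand that is loaded and kept, and the 3p arm is the passenger strand. In the heart of rodents and humans miR-21 is best known from fibroblasts and from fibrosis, with SPRY1 and PDCD4 among its studied targets.

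The 3 entries are shown first, since the counts of each arm are read from them. Sequences are those of the deposited tables, written 5′ to 3′ with T for U, and the capitals mark the seed (bases 2 to 8).
oar-miR-21, chr11:10336505-10336527: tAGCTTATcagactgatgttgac
hsa-/mmu-/rno-miR-21-5p, chr11:10336505-10336526: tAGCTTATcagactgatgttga
mmu-/rno-miR-21a-3p, chr11:10336543-10336564: cAACAGCAgtcgatgggctgtc

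All 3 map to the + strand of sheep chromosome 11 in build Oar v4.0. The first 2 are the same 5p arm, 23 and 22 nt long with the same start, and the third is the 3p arm of the same hairpin. The seed AGCTTAT occurred in 2 of the 636 entries, both of them these 5p forms, and the seed AACAGCA in 1, so no other miRNA in the tables shares a seed with either arm. In RefSeq's sheep gene table (assembly ARS-UI_Ramb_v3.0, used for neighbours only) MIR21 lies on chromosome 11 inside the span of VMP1, a gene for an autophagy membrane protein, with TUBD1 and RPS6KB1 next on one side and PTRH2 on the other.

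oar-miR-21 carried nearly all miR-21 reads, and its level was lowest in Cont, intermediate in HF and highest in HF-R. The Cont library held 53224 of its counts, the HF library 89870 and the HF-R library 139613. As counts-per-million values over the distinct entries (CPM) these were 11297.5 in Cont (95% interval 11201.7 to 11393.9) against 14601.6 in HF (14506.3 to 14697.4) and 23307.4 in HF-R (23185.3 to 23430). The 3 intervals do not overlap. They are exact Poisson intervals, while those of ratios and shares below are exact Clopper-Pearson intervals. Both kinds cover counting error only, because no library had a replicate and PCR reads without molecular identifiers are not independent molecules. Differences between sheep could therefore not be measured, and each ratio below compares libraries rather than conditions. In bulk tissue, more miR-21 per cell and more of the cells that hold it cannot be told apart.

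**Figure D1:**
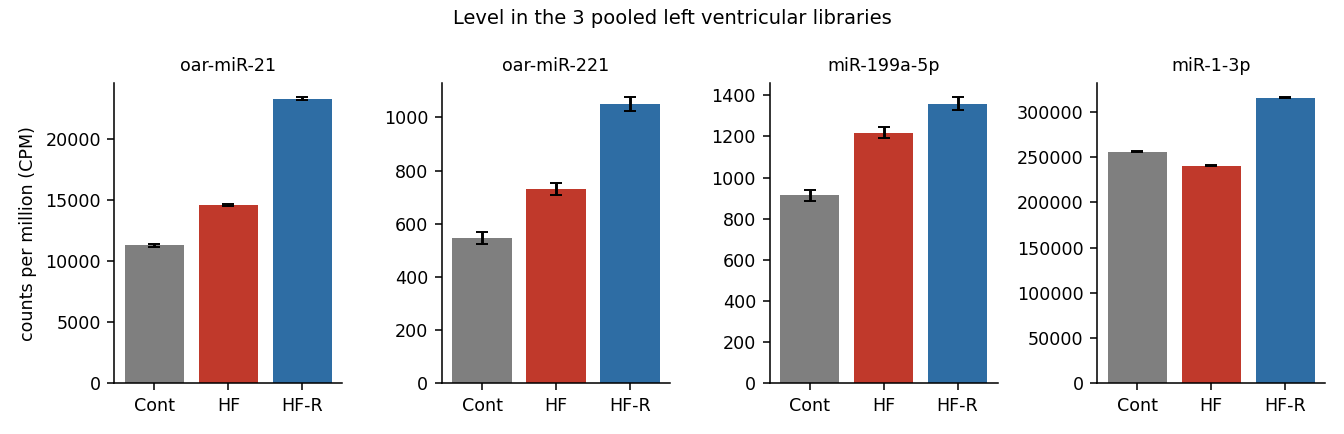
Level in counts-per-million (CPM) of oar-miR-21, oar-miR-221, miR-199a-5p and miR-1-3p in the Cont, HF and HF-R libraries, each panel on its own axis from 0, with 95% counting intervals as error bars. oar-miR-21 went from 11297.5 to 14601.6 to 23307.4 CPM, with the larger step between HF and HF-R.

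The totals of the libraries were 4711131 (Cont), 6154795 (HF) and 5990078 (HF-R) counts over 621 distinct entries, of which 550 to 578 had a count in a given library. Of the cardiomyocyte miRNAs that mark this tissue, miR-1-3p (240471 to 315625 CPM), miR-499a-5p and oar-miR-133 were abundant in every library. Others were not, such as miR-208a-3p with 4.39 to 12.5 CPM. As a share of all counts, oar-miR-21 made up 1.13% at baseline, 1.46% in failure and 2.33% after recovery. By count it ranked 16, 15 and 13 in the 3 libraries.

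Between HF and Cont the CPM ratio of oar-miR-21 was 1.29 (95% counting interval 1.28 to 1.31). An entry was called higher where its ratio was at least 1.5 with an interval that excluded 1, and lower below 1/1.5, among the 356 distinct entries whose mean reached 10 counts. oar-miR-21 was not called in HF, while 30.6% of the 356 entries were called, 22.8% higher and 7.87% lower. Its ratio ranked 137 of 356, beside a median of 1.12 over all of them. On the log2 scale the ratio of oar-miR-21 was 0.37 and the median of all entries 0.16.

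Between HF-R and Cont the ratio was 2.06 (2.04 to 2.08), and oar-miR-21 was called higher. Here 16% of entries were called, 4.78% higher and 11.2% lower. Its ratio ranked 16 of 356 beside a median of 0.98, and ranked 2 of the 192 entries whose mean reached 100 counts, after miR-365a-3p at 2.08 (1.76 to 2.45), an interval that includes the value of oar-miR-21. The 2 most abundant of the 17 entries called higher were oar-miR-21 (mean 94235.7) and oar-miR-23a (mean 31391.7).

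Between HF-R and HF the ratio was 1.60 (1.58 to 1.61), also called higher, where 28.4% of entries were called, 5.06% higher and 23.3% lower. Its ratio ranked 24 of 356 beside a median of 0.82, and 7 of the 192 more abundant entries. The median entry was thus lower in HF-R than in HF under CPM (log2 -0.29) but not under edgeR's TMM scaling (0.06), and oar-miR-21 was higher under both.

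**Figure D2:**
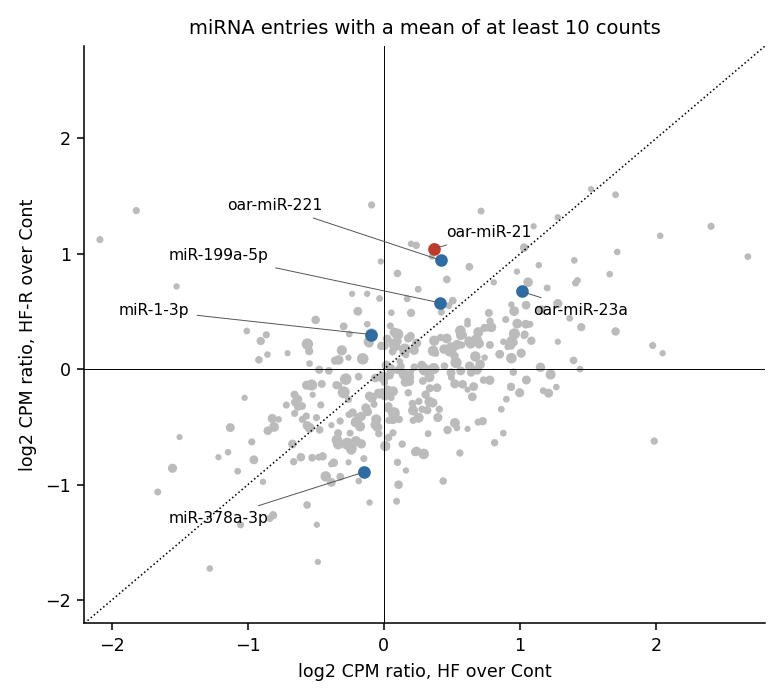
Log2 CPM ratio of HF over Cont (horizontal) against HF-R over Cont (vertical) for 356 miRNA entries, with point size rising with mean count, oar-miR-21 in red, named entries in blue and a dotted line of equal ratios (3 entries lie outside the axes). oar-miR-21, at 0.37 and 1.04, sits above the dotted line beside oar-miR-221, and miR-378a-3p lies below 0 on both axes, though as raw counts its HF/Cont ratio was 1.18.

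Few entries were higher at both steps with counting intervals that excluded 1. High counts make this rule easier to meet, and it sets no minimum size. Entries with few counts could have the same order of levels without meeting it, such as miR-214-3p at 7.85, 9.26 and 16.5 CPM. Under CPM, HF exceeded Cont, with an interval that excluded 1, in 131 of the 356 entries. In 105 of these 131 HF-R was below HF, and in 7, or 1.97% of the 356, it exceeded HF again. The 7 were oar-miR-21, oar-miR-221, miR-199a-5p, oar-miR-133 (muscle-enriched), let-7a-5p, oar-let-7f and let-7c-5p. Of these, oar-miR-21 had the largest HF-R/HF ratio at 1.60, with oar-miR-221 next at 1.43 and miR-199a-5p at 1.12, while let-7c-5p stood at 1.01. The membership depended on the scaling. With edgeR's TMM factors 9 entries were higher at both steps and with DESeq2's size factors 8, of which 3 each were among the 7, namely oar-miR-21, oar-miR-221 and miR-199a-5p. With TMM the first step of these 3 was slight, with HF/Cont ratios of 1.01, 1.05 and 1.05 and lower limits of 1.00, 1.00 and 1.01. No difference between the Cont and HF libraries can be read from such values.

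The difference between HF and Cont depended most on the scaling. Under CPM the median entry was higher in HF than in Cont by 0.16 on the log2 scale. Under TMM the same median was -0.19 and under DESeq2's size factors -0.06. The HF/Cont ratio of oar-miR-21 was 1.01 (1.00 to 1.02) with TMM, 1.11 (1.09 to 1.12) with size factors and 1.69 as a ratio of raw counts. Over the entries the split of higher to lower calls in HF went from 81 and 28 under CPM to 42 and 74 under TMM and 52 and 53 under size factors.

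The HF-R/Cont ratio was less sensitive. It was 2.07 with TMM, 2.15 with size factors, 2.24 with miR-1-3p left out of the totals and 1.86 with the total of the perfect-match tables, and was called higher under each of 9 scalings. The split of calls was 17 higher and 40 lower under CPM, 17 and 39 under TMM, and 21 and 32 under size factors.

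The HF-R/HF ratio lay between 1.45 and 2.04. It was called higher under 8 of the 9 scalings, and at 1.45 (1.44 to 1.46) it stayed under the size threshold with the total of the perfect-match tables. The split of higher to lower calls here was 18 and 83 under CPM, 58 and 33 under TMM, and 44 and 41 under size factors.

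Divided by the median entry, which removes any common scaling, oar-miR-21 was 1.15 in HF/Cont, 2.11 in HF-R/Cont and 1.95 in HF-R/HF. All 3 values lie above 1.

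**Figure D3:**
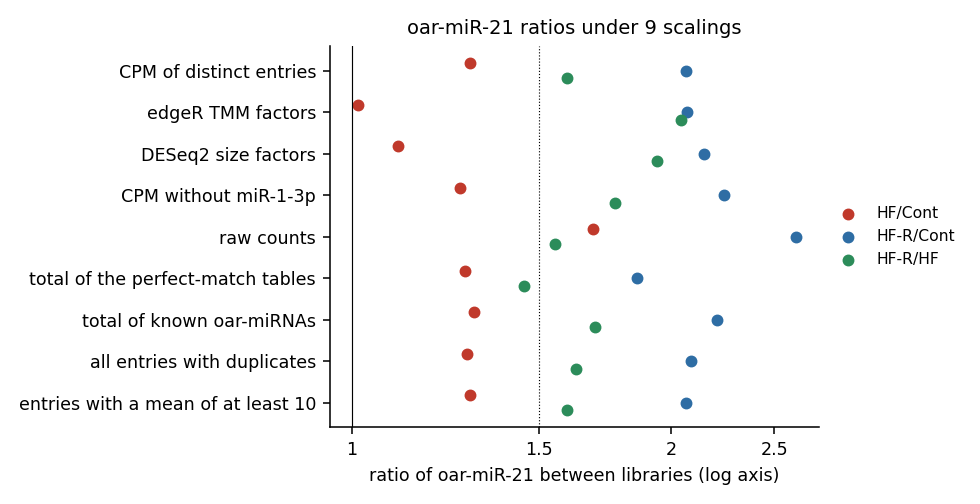
Ratio of oar-miR-21 between libraries (log axis) under 9 ways of scaling the libraries, with HF/Cont in red, HF-R/Cont in blue and HF-R/HF in green, a solid line at 1 and a dotted line at 1.5. HF/Cont ran from 1.01 to 1.69, HF-R/Cont from 1.86 to 2.62 and HF-R/HF from 1.45 to 2.04.

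Counts of 2 miRNAs in the same library can be compared with no scaling at all, but they may differ in match class. The paper prints the merged mean count of oar-miR-133 as its count of partial matches, and that of miR-1-3p as perfect matches. Whether the counts of oar-miR-21 and of the references below are of the same match class was not tested. Per 100 counts of miR-1-3p, the most abundant muscle miRNA, there were 4.41 counts of oar-miR-21 in Cont against 6.07 in HF and 7.38 in HF-R. Per 100 counts of miR-499a-5p, which is encoded in a myosin gene of the cardiomyocyte, the values were 26.5, 27.8 and 54.8. Against this reference Cont and HF were close and HF-R stood apart.

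Per 100 counts of miR-143-3p, best known from smooth muscle, they were 11.2, 17.7 and 26.4. Per 100 counts of oar-miR-30a-5p, another abundant cardiac miRNA, they were 9.86, 15.4 and 31.8. oar-miR-21 gained on all 4 of these abundant references at both steps, by the least from Cont to HF against miR-499a-5p. Other abundant references gave another answer. Of the 19 other entries compared next, 5 had a higher HF/Cont ratio than oar-miR-21, among them miR-27a-3p at 1.41. Relative to those 5, oar-miR-21 fell from Cont to HF. From HF to HF-R it fell relative to 1 of the 19, oar-let-7g. A gain in HF without scaling therefore depended on the reference.

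Among the 20 entries with the highest mean counts, oar-miR-21 ranked 14. In HF/Cont 5 of the 19 others had a higher ratio, led by oar-miR-23a, of the miR-23/27/24 cluster, at 2.02. In HF-R/Cont none of the 19 had a higher ratio, the next being oar-miR-23a at 1.60 and the lowest miR-378a-3p at 0.54. In HF-R/HF 1 of the 19 did, oar-let-7g at 1.72.

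In absolute CPM the gain of oar-miR-21 from Cont to HF-R, 12009.9, ranked 2 of all entries after that of miR-1-3p, 59423.5, and before that of miR-27a-3p, 5865.72. From Cont to HF its gain was 3304.12 and ranked 9, where miR-27a-3p came first with 17751.8. From HF to HF-R its gain of 8705.75 ranked 3, after miR-1-3p (75153.9) and oar-let-7g (10242.1).

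The entries nearest to oar-miR-21 in mean count followed other courses. miR-378a-3p, encoded in a gene of mitochondrial metabolism and ranked 12 by mean, had 131555, 154925 and 90168 counts in Cont, HF and HF-R, and ratios of 0.90 in HF/Cont and 0.54 in HF-R/Cont. oar-let-7g, ranked 13, had 99345, 87913 and 146911 counts and was lowest in HF, with ratios of 0.68 and 1.16. oar-miR-30c, ranked 15 and known for repressing connective tissue growth factor, had 65426, 110217 and 83528 counts.

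Its HF/Cont ratio equalled that of oar-miR-21 at 1.29, but in HF-R it was back at 1.00 of Cont. oar-miR-125b, ranked 16, behaved alike with 50079, 94445 and 66287 counts and ratios of 1.44 and 1.04. Of these 5 entries of similar abundance, oar-miR-21 alone exceeded Cont in HF by its interval and HF by its interval in HF-R.

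The pattern most like that of oar-miR-21 belonged to oar-miR-221. Likeness was the Euclidean distance over log2 HF/Cont and log2 HF-R/Cont among 191 other entries whose mean reached 100 counts, and rests on 3 libraries. oar-miR-221, an miRNA of vascular cells, had 2572 counts in Cont against 4501 in HF and 6285 in HF-R, at a distance of 0.11. Its ratios were 1.34 (1.28 to 1.41) in HF/Cont, 1.92 (1.84 to 2.01) in HF-R/Cont and 1.43 (1.38 to 1.49) in HF-R/HF. There were 20.7, 19.97 and 22.2 counts of oar-miR-21 for each count of oar-miR-221 in the 3 libraries. This narrow range restates the distance by which oar-miR-221 was chosen and is no separate observation.

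The next entry, miR-199a-5p, which is known from fibroblasts and muscle, stood at a distance of 0.47 with 4302, 7497 and 8147 counts. It followed oar-miR-21 in HF (1.33) and less so in HF-R (1.49 over Cont). There were 12.4, 12.0 and 17.1 counts of oar-miR-21 per count of it. miR-432-5p was at 0.58 with 148, 222 and 264 counts, and miR-365a-3p at 0.66 with 202, 539 and 533. mmu-miR-193b-3p was at 0.69 with 83, 185 and 148 counts, and its HF-R/HF ratio of 0.82 (0.66 to 1.03) had an interval that includes 1.

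Lists of miRNAs known from the cell types of the heart were set beside oar-miR-21, since its level in bulk tissue can move with them. Of 4 fibroblast entries, HF-R/Cont was called higher in 2 and lower in 0, with a median ratio of 1.67, beside 4.78% called higher, 11.2% lower and a median of 0.98 over all entries. miR-214-3p, whose gene is shared with miR-199a, had 37, 57 and 99 counts and a ratio of 2.10 (1.43 to 3.16). miR-214-5p from the same hairpin had 54, 109 and 127 counts and 1.85 (1.34 to 2.59). miR-199a-5p (1.49) and miR-199b-5p (1574, 2283 and 2218 counts, 1.11) were not called. The summed level of the 4 was 1267 CPM in Cont against 1616 in HF and 1768 in HF-R, in the same order as oar-miR-21 on this scale. The 2 calls also stood with TMM, and with size factors 3 of the 4 were called higher.

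Of 7 endothelial entries whose mean reached 10 counts, HF-R/Cont was called higher in 2 and lower in 1 (median 1.21), beside 4.78% and 11.2% of all entries. The summed level of all 14 endothelial entries was 4011, 3725 and 3343 CPM. The 2 were the arms of 1 hairpin, oar-miR-221 and miR-221-5p (14, 30 and 46 counts). miR-222-3p, the partner of miR-221 in its cluster and with the same seed in other mammals, had 263, 270 and 304 counts and a ratio of 0.91. No entry was found under the name miR-126, the defining endothelial miRNA.

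Of 7 smooth muscle entries 0 were called in HF-R/Cont (median 1.15), with summed levels of 102111, 83648 and 89132 CPM. Of 4 leukocyte entries 0 were called higher and 0 lower in HF-R/Cont (median 0.77), and in HF/Cont 2 were called lower, beside 7.87% of all entries. The 6 leukocyte entries, low counts included, summed to 565, 454 and 489 CPM. miR-155-5p, of activated leukocytes, had 716, 1105 and 1065 counts and a ratio of 1.17 in HF-R/Cont, and miR-223-3p, of neutrophils, had 3, 8 and 5 counts. No entry was found under the name miR-146a. Of 6 erythroid entries 0 were called higher and 2 lower in HF-R/Cont (median 0.71), where 11.2% of all entries were called lower, with sums of 3920, 3915 and 3230 CPM.

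Of 16 cardiomyocyte entries HF-R/Cont was called higher in 1, miR-208a-3p from an α-myosin gene (22, 27 and 75 counts), and lower in 0 (median 1.21), a count near the 4.78% of all entries called higher. The 18 cardiomyocyte entries, low counts included, summed to 330410, 332979 and 396950 CPM. The fibroblast and cardiomyocyte sums were highest in HF-R, and the erythroid, leukocyte, endothelial and smooth muscle sums were not. Single entries set some of these sums. Most of the cardiomyocyte sum was miR-1-3p (256202, 240471 and 315625 CPM). Of its other abundant entries, oar-miR-133 was highest in HF-R and miR-499a-5p in HF. The endothelial sum fell with oar-miR-10a (1336, 1183 and 948 CPM) and oar-miR-10b (2057, 1742 and 1270 CPM), while oar-miR-221 rose (546, 731 and 1049 CPM). The part of any cell type in the level of oar-miR-21 was not tested.

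**Figure D4:**
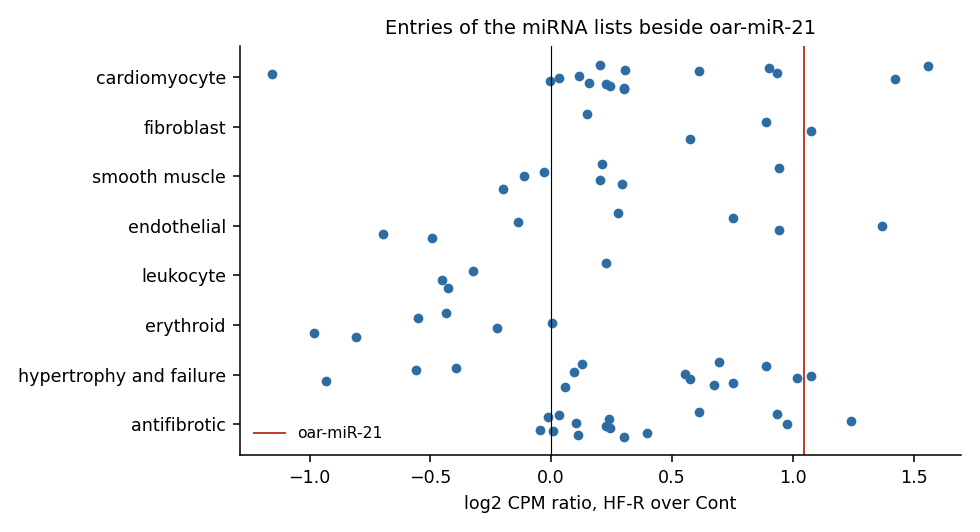
Log2 CPM ratio of HF-R over Cont for each entry that reached a mean of 10 counts in 8 miRNA lists, with the value of oar-miR-21 (1.04) as a red line and 0 as a black line. Few entries reach the red line, 2 in the cardiomyocyte list, 1 each in the fibroblast, endothelial, hypertrophy and failure, and antifibrotic lists, and 0 in the smooth muscle, leukocyte and erythroid lists.

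Among 14 entries of miRNAs known from cardiac hypertrophy and failure, HF/Cont was called higher in 6 and lower in 0 (median 1.39), where 22.8% of all entries were called higher (median 1.12). HF-R/Cont was called higher in 4 and lower in 1 (median 1.48), where 4.78% of all entries were called higher (median 0.98). The 4 were oar-miR-23a, oar-miR-23b, miR-214-3p and miR-214-5p. Both miR-214 arms, from 1 hairpin, and miR-199a-5p are also in the fibroblast list, so these lists are not separate sets. HF-R/HF was called higher in 1 and lower in 3 (median 0.80), a count near the 23.3% of all entries called lower (median 0.82). oar-miR-23a had 16634, 43794 and 33747 counts, with 2.02 in HF/Cont and 1.60 in HF-R/Cont. oar-miR-23b had 1206, 3283 and 2586 counts and gave 2.08 and 1.69. miR-24-3p, of the same clusters, had 13133, 32842 and 17847 counts and gave 1.91 and 1.07. Under CPM these 3 peaked in HF, where oar-miR-21 did not, but with TMM the HF-R/HF ratio was 1.01 for oar-miR-23a and 1.03 for oar-miR-23b, against 0.71 for miR-24-3p. The HF-R/HF calls of this list likewise turned with the scaling, to 4 higher and 0 lower with TMM and 2 and 0 with size factors, and its HF/Cont calls were 5 and 2 with TMM, while its HF-R/Cont calls were 4 and 1 with TMM and 6 and 1 with size factors. No entry was found under the name miR-132.

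Among 15 entries of antifibrotic miRNAs, whose known targets include collagen and other matrix genes, HF/Cont was called higher in 5 and lower in 0 (median 1.48), beside 22.8% higher over all entries and their median of 1.12. HF-R/Cont was called higher in 1 and lower in 0 (median 1.18), beside 4.78% and a median of 0.98. HF-R/HF was called higher in 0 and lower in 3 (median 0.68), a count near the 23.3% called lower over all entries, whose median was 0.82. The entry called higher in HF-R/Cont was the miR-29c-3p form with 11, 76 and 33 counts. oar-miR-29a, a repressor of collagen genes, had 10039, 20893 and 13786 counts and ratios of 1.59 in HF/Cont and 0.68 in HF-R/HF. oar-miR-29b had 2291, 5903 and 3831 counts with 1.97 and 0.67. miR-101-3p had 3726, 11375 and 4592 counts with 2.34 and 0.41. With TMM these 3 were still lower in HF-R than in HF, at 0.87, 0.85 and 0.53, and the HF-R/HF calls of the list were 2 higher and 3 lower. For each count of oar-miR-29a there were 5.30 counts of oar-miR-21 in Cont against 4.30 in HF and 10.1 in HF-R, so this proportion was lowest in HF and highest in HF-R with no scaling involved.

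The other miR-21 entries were near the limit of detection. hsa-/mmu-/rno-miR-21-5p had 1 count in Cont, no value in HF and 2 counts in HF-R, and mmu-/rno-miR-21a-3p had 1, 1 and 3. A count of 0 allows up to 3 counts, which is 0.637 CPM in Cont against 0.487 in HF and 0.501 in HF-R, so all of these values were at or under that floor and no fold is given. Neither entry passed the minimum of 10 counts. The few reads under hsa-/mmu-/rno-miR-21-5p say nothing of how common the 22 nt form was. In the perfect-match table of each library 171 of 171 human, mouse and rat rows that start at the first base of a known oar-miRNA were blank (100%), against 63.3% to 65.2% of 1814 other rows. Perfect-match counts at those starts were thus not listed under human, mouse or rat names. The lengths of the reads behind the count of oar-miR-21 are not given.

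For the 3p arm, each library also had a table of partial matches, of 70 to 99%. Perfect and partial reads together were 9 in Cont against 13 in HF and 14 in HF-R. The ratio of these sums in CPM was 1.22 (0.49 to 3.20) in HF-R/Cont, an interval that includes both 1 and the 2.06 of the 5p arm, so a change of the 3p arm was not detectable at this depth. HF/Cont was 1.11 (0.44 to 2.93) and HF-R/HF 1.11 (0.48 to 2.56). With perfect and partial 3p reads, the 5p arm exceeded the 3p arm 5914-fold in Cont against 6913-fold in HF and 9972-fold in HF-R. As reads-per-million of both arms, the 3p arm had 169 (77.3 to 321) in Cont against 145 (77.0 to 247) in HF and 100.3 (54.8 to 168) in HF-R, and these intervals overlap. With perfect 3p reads alone (1, 1 and 3), the order of the libraries was another one, at 18.8 (0.476 to 105), 11.1 (0.282 to 62.0) and 21.5 (4.43 to 62.8), again with overlapping intervals. No order of the libraries can be read from either.

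The partial reads carry the ends seen for the 3p arm. From them 2 are given for each library, with capitals for the bases identical to the entry from its 5′ end.
Cont, first 3p read: CAACAGCAGTCGATGGGCTGTag
Cont, second 3p read: CAACAGCAGTCGATGGGCTGaa
HF, first 3p read: CAACAGCAGTCGATGGGCTGTCa
HF, second 3p read: CAACAGCAGTCGATGGGCTGTa
HF-R, first 3p read: CAACAGCAGTCGATGGGCTGTCt
HF-R, second 3p read: CAACAGCAGTCGATGGGCTGTt

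The tables list 7 distinct partial 3p reads in Cont against 10 in HF and 8 in HF-R, without a count for each. By the longest run shared with the entry or with its reverse complement, 1 of these in HF and 1 in HF-R were antisense to the arm. The authors' partial counts, and so the sums of 9, 13 and 14, include them. The reads that matched the entry over at least 17 bases from its 5′ end numbered 7, 6 and 7. Other bases followed the matched run in 5, 5 and 6 of them, and the rest (2, 1 and 1) ended early without any. Reads identical to the entry were 11.1% of the 3p reads in Cont (0.281 to 48.2%) against 7.69% in HF (0.195 to 36.0%) and 21.4% in HF-R (4.66 to 50.8%). These shares rest on 9 to 14 reads and their intervals overlap, so no difference between libraries was detectable.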

How the data were processed

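Total RNA from LV tissue was pooled by condition (4 sheep in Cont, 6 in HF, 4 in HF-R) and sequenced as 3 small RNA libraries. The authors kept reads of 15 to 30 nt, aligned them to miRBase v21 with Blast and mapped them to Oar v4.0 with Bowtie, whose versions are not given in the sources used here. The deposited counts are raw reads per entry, and blank cells mark libraries with none listed. The authors' mean signal column averages the libraries with a value and was not used for ratios. Entries with equal counts at overlapping loci were taken once (15 removed). CPM ratios, with exact Clopper-Pearson 95% intervals, were computed in Python 3.11.15 with numpy 2.4.6 and scipy 1.17.1, and figures with matplotlib 3.10.9. Alternative scalings used edgeR 4.0.16 (TMM) and DESeq2 1.42.0 (size factors) in R 4.3.3. With 1 library per condition no p-value was computed. The interval code was tested on simulated data. Named entries were the miR-21 entries, entries sharing their seed, the 5 closest in pattern, the 2 ranked on each side by mean count and members of the fixed lists, with others named after their values were seen (the most abundant entries, gains and entries higher at both steps). The miR-21 entries and the lists were chosen with earlier results of these data known. The study's supplementary list prints other counts for this miRNA, which were not used here. The merged counts may mix perfect and partial matches, because the paper prints the merged mean of oar-miR-133 as partial matches. Whether this holds for oar-miR-21 was not tested.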

Additional observations from a re-analysis of the deposited data

How the results depend on the processing

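Results rest on 1 pooled library per condition, so spread between sheep is unknown and the intervals cover counting error only. No paired analysis was possible because each condition had 1 library and no replicate number. The 3 ratios of oar-miR-21 stayed above 1 in every alternative run, but HF/Cont only barely with TMM, at 1.01 (1.00 to 1.02). No difference between the Cont and HF libraries can be read from that value. The cause of each shift was not tested. HF/Cont, 1.29 under CPM, was 1.01 with TMM, 1.11 with size factors, 1.27 without miR-1-3p in the totals, 1.28 with the total of the perfect-match tables and 1.69 for raw counts, which alone called it higher. HF-R/Cont, 2.06 under CPM, was called higher throughout, with 2.15 for size factors, 2.24 without miR-1-3p, 2.62 for raw counts, 1.86 with the perfect-match total, 2.21 with the total of known oar-miRNAs and 2.09 with duplicates kept. HF-R/HF, 1.60 under CPM, was 2.04 with TMM, 1.94 with size factors, 1.77 without miR-1-3p, 1.55 for raw counts, 1.45 (not called) with the perfect-match total, 1.69 with known oar-miRNAs and 1.63 with duplicates. Calls in either direction, 109 (HF/Cont), 57 (HF-R/Cont) and 101 (HF-R/HF), were 61, 29 and 57 at a mean of at least 100 counts, 169, 115 and 176 at a size of 1.2, and 50, 18 and 41 at a size of 2. The scalings for entries higher at both steps and for the lists were chosen after seeing the data. Taking the oar-miR-21 count itself from the perfect-match tables, and its reads by exact sequence, was not run, because its rows there are blank and reads are listed without a count each.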
